A study of Arabidopsis thaliana with 625 samples.

Results

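Large stomatal-lineage cells were compared with small ones among 478 single Arabidopsis thaliana cells that carried TMMp::TMM-YFP, a yellow fluorescent fusion of the receptor-like protein TOO MANY MOUTHS under its own promoter. The cells were chosen by forward scatter, the light a cell deflects forward in the sorter and a common stand-in for cell size. Within each of 7 sort plates, the cells in the upper tercile (1 of 3 equal parts) of log2 forward scatter area were called large and those in the lower tercile small, which gave 158 large and 158 small cells and set the 162 cells between them aside. They came from a series with 621 such Smart-seq2 cells, a method that reads full-length transcripts of 1 cell per well. All were from aerial tissue of seedlings 10 days after germination, and the TMMp cells came from 2 pools on 2 and 5 plates. A second line, ATML1p::YFP-RCI2A, in which an epidermal promoter drives a yellow fluorescent membrane marker, served for 1 comparison, with 46 large and 46 small cells of 143 on 5 plates. Droplet samples of the series were not analysed here. Nothing in the labels said that pools or plates were separate cultures, so p-values here measured the spread between plates, which may be technical.

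Stomata, the pores of the leaf surface, arise from protodermal cells that divide unequally. The smaller daughter, the meristemoid, keeps dividing and later becomes the guard mother cell, and the larger daughter usually grows into a lobed pavement cell. SPEECHLESS (SPCH), MUTE and FAMA are the transcription factors that act one after another along this path, TMM and the ERECTA family perceive the peptides that space it, and POLAR and BASL mark the polarity of its unequal divisions. Cell size therefore differs between the cell types of the lineage and changes as each grows.

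Forward scatter, which selected the cells, had a plate median 1.68-fold to 1.85-fold higher in large than in small cells. The log2 forward scatter just inside and just outside the upper tercile was 16.83 and 16.83 on plate TMM6, and the largest gap at that border was 16.78 against 16.76 on plate TMM-1. At the lower border the first cell outside and the last cell inside had 16.47 and 16.42 on plate TMM7. The classes were therefore cut from a continuous range. Forward scatter height was 1.65-fold and forward scatter width 1.08-fold higher in large cells, as a description of the same signal.

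Large cells held more kinds of transcript, scattered more light sideways and were brighter. The median number of genes with a TPM of 1 or more (a transcript's abundance scaled to a common total per cell, which defined a detected gene) was 2802, 3152 and 4891 on the lowest, median and highest plate in large cells, against 1867, 2206 and 2685 in small cells. The plate values averaged 3436 ± 714 in large and 2270 ± 304 in small cells (SD, n = 7 plates each, exact two-sided sign-flip test p = 0.0156, the smallest that 7 plates can give, and 0.026 after adjustment over 5 measures). Large cells had the higher value on 7 of 7 plates, and no plate of large cells fell within the range of the small ones. Side scatter area, a measure of granularity, was 1.90-fold higher in large cells, with a log2 difference of 0.93 ± 0.17 (SD over 7 plates, exact sign-flip p = 0.0156, adjusted 0.026). The FITC area, the channel that reads the TMM-YFP reporter, was 1.5-fold higher, with a log2 difference of 0.59 ± 0.28 and the same p values from the exact test. Transcripts of the chloroplast genome took 2.38% ± 0.659 of TPM in large and 2.61% ± 0.323 in small cells (exact sign-flip p = 0.391), and those of the mitochondrial genome 2.91% ± 0.457 in large and 2.78% ± 0.264 in small cells (exact p = 0.781). Neither organelle share passed the test.

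**Figure D1:**
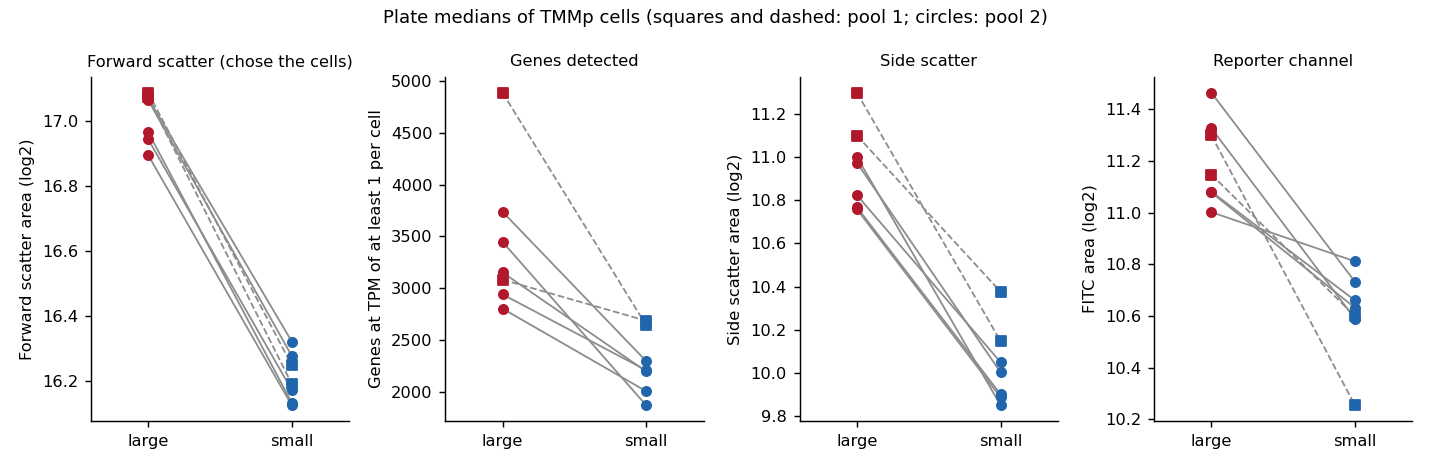
Plate medians in large (red, left) and small (blue, right) TMMp cells for forward scatter area, genes detected per cell, side scatter area and the FITC reporter channel, with a line joining each of the 7 plates. Forward scatter chose the cells, and the other 3 measures were higher in large cells on 7 of 7 plates.

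Large cells held more detected genes, and most genes also had a higher value in them when nothing else was taken into account. With no covariate, the median difference over the 9435 genes tested was 0.48 on the log2(TPM + 1) scale, 91.4% of genes lay above 0, and 2043 genes passed as higher in large cells (21.7% of the genes tested) against 7 lower (0.0742%). The comparison below therefore used the number of genes detected as a covariate in each plate, which brought the median over all genes to -0.01 and left 49.1% above 0. A value from that fit is the difference between large and small cells at a given number of genes detected. Adding 1 makes changes of weakly expressed genes look smaller than they were.

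At a given number of genes detected, 53 genes were higher in large cells (0.562% of the 9435 tested) and 12 were lower (0.127%) at an adjusted p under 0.05 in limma over the 7 plates, and 1097 genes had an unadjusted p under 0.05. The genes that rose were led by BCB, GA2OX6 and AT1G66090, and those that fell by AT1G54050, HSP81-3 and AT1G04770, all described below. Of the 53 genes, 38 were above 0 on all 7 plates, 13 on 6 and 2 on 5. Of the 12 genes, 9 were below 0 on all 7 plates and 3 on 6. Side scatter moved with size on every plate, and with side scatter added as a covariate no gene passed in either direction (812 at an unadjusted p under 0.05), while the 53 genes all stayed above 0, with a median of 1.33 instead of 1.80, and the 12 all stayed below 0, with a median of -1.49 instead of -1.60. No gene passed on the log2 of plate mean TPM (300 at an unadjusted p under 0.05) or without the filter on low values (1609 of 22342 genes). On the 2 plates of pool 1 alone, 2 higher and 12 lower genes passed. These held 0 of the 53 genes above and 1 of the 12 above, so they were mostly other genes. Leaving out single plates moved the number of higher genes to 17 (TMM6), 18 (TMM4), 31 (TMM3), 34 (TMM7) or 105 (TMM-2), and that of lower genes to 3 (TMM4 or TMM6), 7 (TMM7), 20 (TMM5) or 22 (TMM-2).

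SNG1 (AT2G22990), which makes sinapoylmalate, the ultraviolet screen of the leaf epidermis, separated the classes without overlap. Its plate mean was 271, 456 and 493 TPM (lowest, median, highest plate) in large cells, against 28.4, 135 and 170 TPM in small cells. Every plate of large cells lay above every plate of small cells, which held for 1 of the 53 genes. The share of all genes tested for which it held is not given here. SNG1 was detected in 56.8% ± 11.8 of large cells and 30.0% ± 12.1 of small cells (SD over 7 plates). Its difference was 2.46 ± 0.46 (SE) with the covariate (limma adjusted p = 0.00115) and 2.57 without it (adjusted p = 0.000103).

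BCB (AT5G20230), a blue copper-binding protein of the cell surface, had the largest rise, 2.94 ± 0.52 (SE, limma adjusted p = 0.000902). Its plate mean was 1681, 3399 and 4806 TPM in large cells and 1561, 2054 and 2816 TPM in small cells. The plate means overlapped and were higher in large cells on 4 of 7 plates, while the covariate-adjusted difference was above 0 on 7 of 7, between 1.03 and 5.93. BCB was detected in 68.3% ± 3.30 of large and 54.9% ± 8.50 of small cells. GA2OX6 (AT1G02400), an enzyme that inactivates gibberellins, a class of growth hormones, rose by 2.83 ± 0.50 (SE, limma adjusted p = 0.000902). GA2OX6 plate means were 362, 542 and 942 TPM in large cells and 241, 463 and 817 TPM in small cells, overlapping and higher in large cells on 3 of 7 plates. For both genes the fit and the plate means differ in kind, since a plate mean is set by its highest cells and takes no account of genes detected. On the log2 of plate mean TPM, with genes detected as covariate, BCB turned to -0.29, and neither gene passed.

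KCS1 (AT1G01120), which elongates fatty acids for wax and the cuticle, had plate means of 158, 208 and 272 TPM in large cells and 85.8, 121 and 161 TPM in small cells. These ranges met at their edges only, and KCS1 rose by 1.99 ± 0.45 (SE, limma adjusted p = 0.0097). It was the 1 gene of the epidermis and cuticle list to pass. PRXCB (AT3G49120), a cell-wall peroxidase of the oxidative burst, had plate means of 163, 386 and 750 TPM in large and 134, 213 and 523 TPM in small cells and rose by 2.04 ± 0.45 (SE, limma adjusted p = 0.00789). BAP2 (AT2G45760), an inhibitor of cell death, had plate means of 36.1, 410 and 1068 TPM in large and 0, 180 and 505 TPM in small cells and rose by 1.93 ± 0.38 (SE, limma adjusted p = 0.00263). In a fit to the log2 of plate mean TPM, with genes detected as covariate, BAP2 turned to -1.33. That covariate was the mean of each class on a plate, so this value is not the direction of the plate means. PRXCB and BAP2 were each higher in large cells on 6 of 7 plates by plate mean, with ranges that overlapped. WRKY48 (AT5G49520), a WRKY transcription factor, was detected in 41.5% ± 8.42 of large and 22.9% ± 7.56 of small cells and rose by 2.17 ± 0.43 (SE, limma adjusted p = 0.00271). For WRKY48 the same fit to the log2 of plate mean TPM, with that covariate, gave -0.30.

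Further genes rose with the same sign on all 7 plates. Among those annotated to defence, AT1G66090, of the TIR-NBS class of disease resistance proteins, rose by 2.66 ± 0.50 (adjusted p = 0.00112), the potato inhibitor I-type protease inhibitor AT2G38870 by 2.46 ± 0.50 (adjusted p = 0.00364), and HR4 (AT3G50480), a homolog of the resistance protein RPW8, by 1.98 ± 0.44 (adjusted p = 0.00789). The RING/U-box gene AT5G66070 was detected in 63.4% ± 6.20 of large and 34.8% ± 7.86 of small cells and rose by 2.60 ± 0.48 (adjusted p = 0.00112). The VQ-motif gene AT2G22880 rose by 2.2 ± 0.49 (adjusted p = 0.00789), and AT2G32200, with a cysteine-rich transmembrane domain, by 1.97 ± 0.50 (adjusted p = 0.0311). AT1G76070, which the annotation gives no function, rose by 2.05 ± 0.50 (adjusted p = 0.0198). AR781 (AT2G26530) rose by 1.98 ± 0.51 in the fit (adjusted p = 0.033), but its plate mean was 477, 646 and 1088 TPM in large and 685, 862 and 1398 TPM in small cells, and was higher in large cells on 1 of 7 plates. Its value on the log2 of plate mean TPM, with genes detected as covariate, was -0.16. Across the 53 genes, 52 were above 0 without the covariate and 40 of them passed there. Over all genes tested, 91.4% lay above 0 without the covariate and 21.7% passed as higher. For the 53, the plate mean was higher in large cells on all 7 plates for 7 genes, on 6 for 12, on 5 for 13 and on fewer than 4 for 10. The matching shares of plate means over all genes are not given here, so these counts are a description.

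The 7 genes whose plate mean was higher on every plate, named here after their values were seen, were SNG1, LEA14, CYP94B3, GGT1, PSBO2, Cand3 and AT5G19230. LEA14 (AT1G01470), a late embryogenesis abundant protein, had plate means of 130, 179 and 589 TPM in large and 5.21, 33.2 and 145 TPM in small cells. CYP94B3 (AT3G48520), which inactivates the hormone jasmonoyl-isoleucine, had 65.8, 109 and 127 TPM in large and 0, 3.50 and 109 TPM in small cells, and a difference of 1.41 ± 0.26 (SE, limma adjusted p = 0.00112). It was carried by few cells, 16.8% ± 8.6 of large and 3.85% ± 2.96 of small. GGT1 (AT4G39640), a gamma-glutamyl transpeptidase that acts on glutathione outside the cell, had 65.5, 92.2 and 160 TPM in large and 0.817, 43.1 and 81.4 TPM in small cells. Hormone and light signalling genes among the 53, also named after their values were seen, included the light-regulated growth factors PIL6 (also called PIF5, 1.78 ± 0.38, adjusted p = 0.0067) and PIF7 (1.24 ± 0.33, adjusted p = 0.0488), the auxin repressor IAA7 (1.05 ± 0.25, adjusted p = 0.0155) and the peptide hormone precursor PSK4 (1.49 ± 0.39, adjusted p = 0.0347). The wall-modifying enzyme XTH18 (1.52 ± 0.39, adjusted p = 0.033) and the sterol enzyme SMT1 (0.88 ± 0.23, adjusted p = 0.033), named after their values were seen, also rose.

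**Figure D2:**
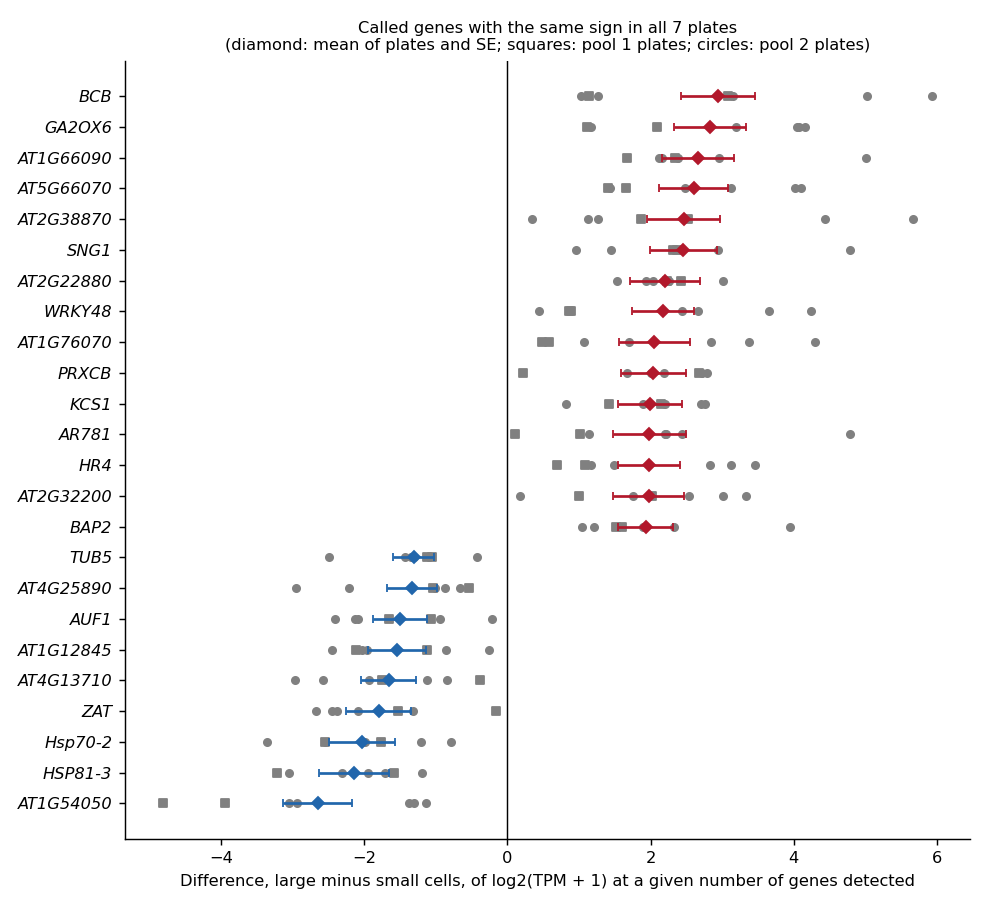
Difference between large and small TMMp cells in log2(TPM + 1) at a given number of genes detected, for the 24 named genes that passed with the same sign on all 7 plates. Grey symbols are plates (squares pool 1, circles pool 2), coloured diamonds the mean of 7 plates with its SE, and the differences run from 2.94 for BCB down to -2.65 for AT1G54050.

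Of the 12 genes that fell, 3 were annotated as chaperones of the heat shock families. AT1G54050, a small heat shock protein of the HSP20 family, fell by 2.65 ± 0.48 (SE, limma adjusted p = 0.00112). Its plate mean was 193, 2996 and 3395 TPM in large cells and 1192, 3659 and 4909 TPM in small cells. The ranges overlapped, and on each of the 7 plates the large cells had the lower mean. HSP81-3 (AT5G56010), a cytosolic HSP90 chaperone, had 107, 302 and 503 TPM in large and 304, 450 and 613 TPM in small cells and fell by 2.14 ± 0.49 (SE, limma adjusted p = 0.01). Hsp70-2 (AT5G02490), a cytosolic HSP70 chaperone, had 71.2, 148 and 363 TPM in large and 194, 255 and 432 TPM in small cells and fell by 2.03 ± 0.46 (SE, limma adjusted p = 0.00911). HSP81-3 and Hsp70-2 had lower plate means in large cells on 6 of 7 plates, with ranges that overlapped. Both belong to families of near-identical copies among which reads could have been split, so their single values are uncertain.

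AT1G04770, of the tetratricopeptide repeat family, named after its values were seen, had 149.9, 294 and 599 TPM in large and 279, 512 and 935 TPM in small cells and fell by 2.05 ± 0.51 (SE, limma adjusted p = 0.0268). It was lower in large cells on 6 of 7 plates, with ranges that overlapped. ZAT (AT2G46800), which loads zinc into the vacuole, had 55.4, 102 and 131 TPM in large and 97.1, 152 and 320 TPM in small cells and fell by 1.80 ± 0.46 (SE, limma adjusted p = 0.0316). The beta-tubulin gene TUB5 (AT1G20010) fell by 1.31 ± 0.28 (adjusted p = 0.0067), the F-box gene AUF1 (AT1G78100) by 1.5 ± 0.37 (adjusted p = 0.0268) and AT4G13710, of the pectin lyase-like family, by 1.66 ± 0.38 (adjusted p = 0.0125). AT4G25890, an acidic protein of the large ribosomal subunit, fell by 1.33 ± 0.35 (adjusted p = 0.0418), and AT1G12845, with no annotated function, by 1.54 ± 0.41 (adjusted p = 0.0478). All 12 genes were also below 0 without the covariate, where AT1G54050 and AT1G04770 passed. Plate means of 10 of the 12 were higher in large cells on at most 1 plate.

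**Figure D3:**
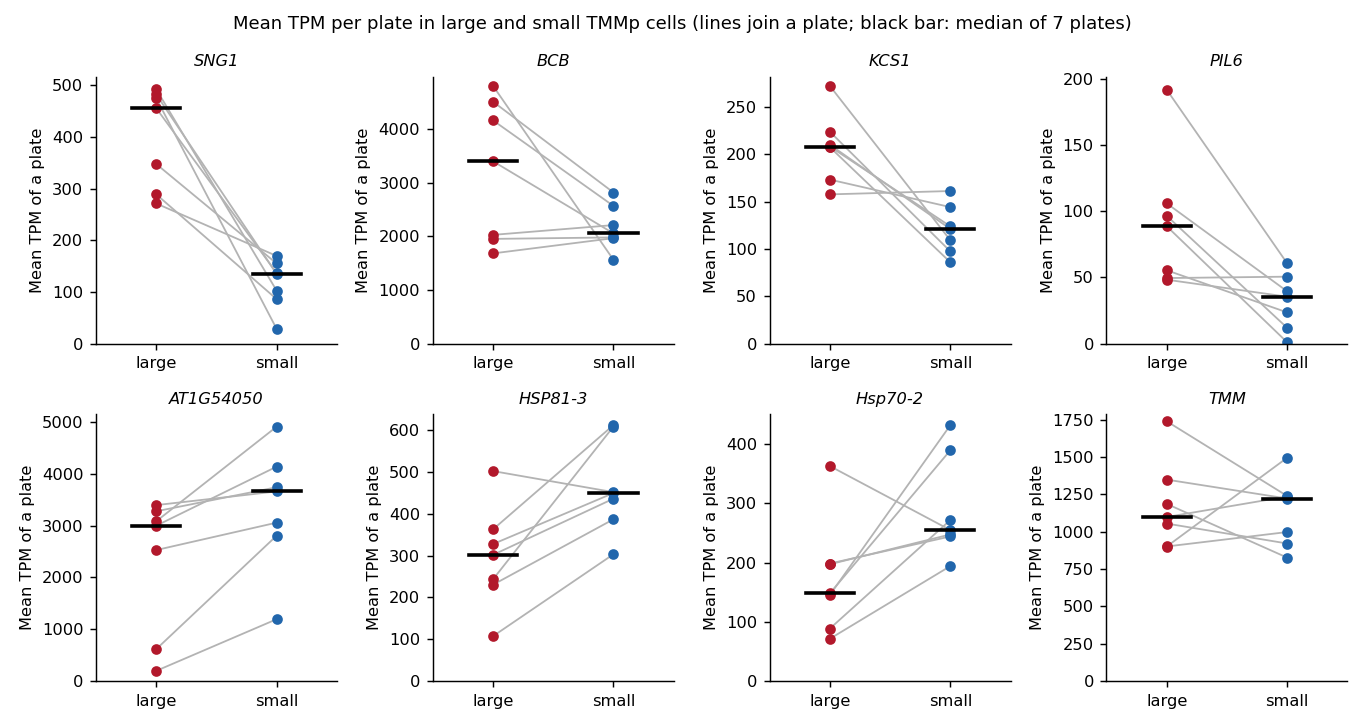
Mean TPM of each of 7 plates in large (red, left) and small (blue, right) TMMp cells for SNG1, BCB, KCS1 and PIL6, which rose, AT1G54050, HSP81-3 and Hsp70-2, which fell, and TMM, which did not pass. Lines join the plates and black bars are medians, and SNG1 is the gene whose ranges do not overlap.

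The 162 cells of the middle tercile took no part in this comparison and were set beside it. Within them, the slope of log2(TPM + 1) on log2 forward scatter, with genes detected as covariate, was above 0 for 45 of the 53 genes that rose (84.9%), against 48.7% of all 9435 genes. The median slope was 3.46 for those 53 genes and -0.08 over all genes, per doubling of forward scatter. Middle cells spanned less than a doubling, with log2 values of 16.31 to 16.57 on TMM5 and 16.50 to 16.88 on TMM4. A slope per doubling thus reaches beyond the cells seen and is not on the scale of the class differences. Of the 12 genes that fell, 9 had a slope below 0, with a median of -2.48. The 3 exceptions were AT1G54050, Hsp70-2 and AT1G04770, with slopes of 1.96, 3.57 and 5.34. Among the genes that rose, SNG1 had a slope of 7.32, KCS1 6.30, GA2OX6 5.51 and BCB 4.99, while 8 genes had slopes below 0. These 8 were CYP72A13 (-3.03), PER4 (-2.73), PSBO2 (-2.13), AT4G08555 (-1.41), PIL6 (-0.84), AT5G35735 (-0.46), AT1G49500 (-0.19) and XTH18 (-0.021). A cell held a median of 22 to 27 of the 53 genes over the plates in large cells, 15 to 24 in middle cells and 12 to 17 in small cells, as a description of genes chosen for this difference. The number of genes detected ran the same way, with plate medians of 2802 to 4891 in large, 2335 to 4013 in middle and 1867 to 2685 in small cells.

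Regulators of the early stomatal lineage did not pass singly. Of the 18 genes listed, 13 were tested, 11 of them lay below 0, none passed, and their median was -0.68, against -0.01 over all genes tested, while without the covariate the direction was the opposite, with 11 of 13 above 0 and a median of 0.34 against 0.48 over all genes. With side scatter added the median was -0.38. It was -0.83 in the fit to the 5 plates of pool 2 and 0.04 in that to the 2 plates of pool 1. Taken plate by plate, the list median was above 0 on 0 of 7 plates, with -0.41 on TMM-1 and -0.07 on TMM-2 of pool 1. TMM (AT1G80080), whose fusion marks the line, had plate means of 900, 1098 and 1739 TPM in large and 826, 1222 and 1495 TPM in small cells, and was detected in 90.6% ± 6.44 of large and 85.5% ± 8.41 of small cells. Its difference was -1.46 ± 0.44 with the covariate (limma adjusted p = 0.0979) and 0.41 without it (adjusted p = 0.423), neither of which passed, beside a reporter channel 1.5-fold brighter in large cells. HDG2 (AT1G05230), an epidermal homeodomain factor that promotes stomatal fate, had plate means of 29.2, 59.8 and 147 TPM in large and 98.0, 104 and 187 TPM in small cells and a difference of -1.59 ± 0.47 (adjusted p = 0.0849). Differences nearest to 0 in the list were those of POLAR (0.07 ± 0.41, adjusted p = 0.968), the receptor gene ER (0.05 ± 0.26, adjusted p = 0.967) and SPCH (-0.15 ± 0.35, adjusted p = 0.911). The guard cell genes had 7 of 16 tested, 3 above 0, a median of -0.14 with the covariate and 0.30 without it, and no gene passed, including FAMA at -0.92 ± 0.27 (adjusted p = 0.0926) and MYB60 at -0.66 ± 0.34 (adjusted p = 0.439).

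Detection of 16 stage genes, as a share of the cells of each plate, was also compared, and no gene passed after adjustment. Shares of 3 genes had an unadjusted p under 0.05. ATML1, a master regulator of epidermal identity, was detected in 44.4% ± 11.8 of large and 29.0% ± 11.6 of small cells (71 of 158 and 46 of 158, exact sign-flip p = 0.0312, adjusted 0.167). PDF1, an epidermal marker, was detected in 65.4% ± 8.74 of large and 53.2% ± 5.50 of small cells, and RBCS1A, a small subunit of the carbon-fixing enzyme Rubisco, in 81.6% ± 9.74 of large and 66.3% ± 9.97 of small cells (both exact p = 0.0312, adjusted 0.167). Each of these 3 was higher in large cells on 6 plates and lower on none, and each had a difference below 0 once genes detected entered as a covariate. SPCH was detected in 22.5% ± 16.5 of large and 12.7% ± 8.33 of small cells (exact p = 0.234), POLAR in 32.1% ± 13.0 of large and 17.2% ± 8.92 of small cells (exact p = 0.0938) and FAMA in 10.6% ± 6.82 of large and 9.30% ± 4.98 of small cells (exact p = 0.656). MUTE, expressed briefly at the guard mother cell stage, was found in 11 of 158 large and 7 of 158 small cells (exact p = 0.75). With the covariate, the difference was -7.97 percentage points for FAMA (exact sign-flip p = 0.0312) and -7.61 for the spacing peptide gene EPF2 (exact p = 0.0469), each with an adjusted p of 0.375.

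The direction of the ribosomal protein genes turned with the covariate. Of 191 cytosolic ribosomal protein genes, 165 were tested, 28 were above 0 and 137 below, with a median of -0.37 with the covariate, against a median of 1.07 and 162 of 165 above 0 without it, where 80 passed as higher. With the covariate 1 of the 165, AT4G25890, passed as lower and none as higher. The median with the covariate was -0.79 in pool 2 alone and 0.65 in pool 1 alone. Of the 16 lists with tested genes, 11 had medians of opposite signs in the fits to the 2 pools, among them the early stomatal lineage list with 0.04 in pool 1. The list medians given here are taken over all 7 plates, and for those 11 lists their direction did not hold in both of these fits. The summed level of the family was 27101, 36823 and 59288 TPM in large and 27993, 35930 and 48979 TPM in small cells (lowest, median, highest plate), and was higher in large cells on 4 of 7 plates. Photosynthesis genes of the mesophyll list had 34 of 37 tested, 9 above 0 and a median of -0.18 with the covariate, against 0.99 without it, and none passed with it. Their sum was 5275, 7481 and 16052 TPM in large and 4738, 5455 and 8949 TPM in small cells, higher in large cells on 6 of 7 plates with none of the 37 genes at 0 throughout, and its part in the differences above was not tested. No vascular gene of 15 reached the filter (sum 3.51 to 131.5 TPM in large and 3.64 to 36.9 TPM in small cells, with 6 genes, including APL and SWEET11, at 0 in every cell compared), and 2 of 12 trichome genes did (sum 56.7 to 185 TPM in large and 26.9 to 192 TPM in small cells, ETC1 and MYB23 at 0 in every cell compared).

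No gene of the growth and division lists passed with the covariate. The wall loosening and expansion list had 8 of 23 genes tested, 2 above 0, a median of -0.43 with the covariate and 0.48 without it, and no gene passed. Its extremes were XTH27 at 0.87 ± 0.43 (adjusted p = 0.422) and the expansin EXPA6 at -0.89 ± 0.36 (adjusted p = 0.286). Endocycle and cyclin-dependent kinase inhibitor genes had 9 of 24 tested, a median of -0.07 with the covariate and 0.37 without it, and KRP4, a kinase inhibitor tied to cell size in the shoot meristem, at -0.47 ± 0.27 (adjusted p = 0.508). S phase genes had 11 of 21 tested and a median of -0.04 with the covariate and 0.39 without it. PCNA2, the sliding clamp of DNA replication, was above 0 on 7 plates at 0.98 ± 0.39 (adjusted p = 0.267), while the ribonucleotide reductase gene TSO2 was at -0.72 ± 0.26 (adjusted p = 0.199). G2 and mitosis genes had 3 of 26 tested, all above 0, with a median of 0.18 with the covariate and 0.80 without it. Their summed level was 479, 589 and 1178 TPM in large and 109, 126 and 640 TPM in small cells, higher in large cells on 6 of 7 plates. Core histones had 31 of 48 tested, 21 above 0, a median of 0.16 with the covariate and 0.98 without it, and the histone gene AT3G53650 had the highest difference, 0.96 ± 0.34 (adjusted p = 0.187). Cell wall synthesis genes had 8 of 10 tested and 7 above 0, with a median of 0.18 with the covariate and 0.88 without it, and the cellulose synthase CESA6 was highest at 0.51 ± 0.39 (adjusted p = 0.663). Nucleolar and ribosome building genes had 12 of 16 tested and a median of -0.11 with the covariate and 0.45 without it, and the water channel and proton pump genes 17 of 25 tested and a median of -0.18 with it and 0.73 without it. In neither of these 2 lists did a gene pass with the covariate.

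Genes of wounding, touch and protoplasting, the enzymatic release of cells from the tissue, had 24 of 33 tested, 17 above 0, none passed, and a median of 0.20 with the covariate and 0.26 without it. The calmodulin-like touch gene TCH3 was highest at 1.37 ± 0.48 (adjusted p = 0.179), followed by WRKY18 at 1.35 ± 0.51 (adjusted p = 0.22), and the jasmonate repressor JAZ10 was lowest at -1.10 ± 0.46 (adjusted p = 0.299). Their summed level was 12082, 12870 and 19874 TPM in large and 13706, 15628 and 19938 TPM in small cells, higher in large cells on 1 of 7 plates. Heat response genes had 15 of 19 tested, 9 below 0 and none passed, with a median of -0.52 with the covariate and 0.03 without it. The heat factor HSFA2 had the lowest value, -1.66 ± 0.50 (adjusted p = 0.098), and the small heat shock gene HSP17.4 the highest, 1.74 ± 0.50 (adjusted p = 0.0764). The median below 0 came from pool 1, with -1.59 on TMM-1 and -3.68 on TMM-2, whereas it was above 0 on the 5 plates of pool 2, between 0.16 and 0.95. Fitted apart, pool 1 gave -2.88 and pool 2 gave 0.32, and without plate TMM-2 the median was 0.13. Its sum was 6797, 33337 and 37886 TPM in large and 19458, 32240 and 42564 TPM in small cells, and its part in the fall of the 3 chaperones was not tested. In the fit to pool 2 alone, AT1G54050, HSP81-3 and Hsp70-2 remained lower in large cells at -1.96, -2.04 and -1.98 (limma adjusted p = 0.0443, 0.0457 and 0.0457). Epidermis and cuticle genes had 17 of 19 tested, 14 below 0 and a median of -0.27 with the covariate, against 0.82 without it, with KCS1 the 1 gene to pass and the wax gene FDH (AT2G26250) lowest at -1.55 ± 0.46 (adjusted p = 0.0936).

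**Figure D4:**
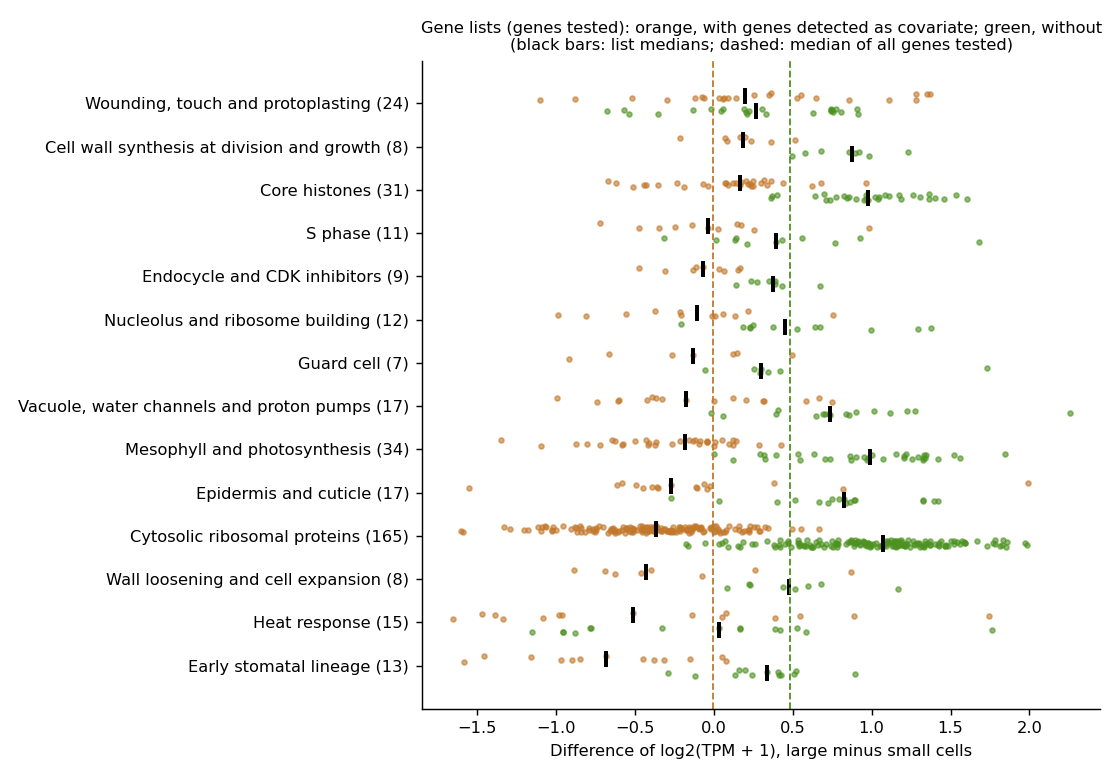
Differences between large and small TMMp cells in log2(TPM + 1) for the tested members of 14 gene lists, with genes detected as covariate (orange, upper row of each list) and without it (green, lower row). Black bars are list medians and dashed lines the medians of all genes tested, -0.01 and 0.48, and the ribosomal protein median lies at -0.37 with and 1.07 without the covariate.

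In ATML1p cells, sorted for the reporter of an epidermal promoter, 0 genes passed for size with genes detected as covariate over their own 5 plates in limma (1569 at an unadjusted p under 0.05), in classes of 5 to 12 cells a plate. The 2 lines were deposited as separate TPM tables, and each difference was taken within its own table. Sums of mesophyll markers and of epidermis markers both moved with size in this line. The sum of the 37 mesophyll and photosynthesis genes, none of them at 0 throughout, was 1678, 16966 and 63011 TPM in large and 15908, 42388 and 172880 TPM in small ATML1p cells, lower in large cells on 4 of 5 plates, and the median difference of the 34 tested genes was -2.80, with 0 of 34 above 0. The sum of the 19 epidermis and cuticle genes, none at 0 throughout, was 599, 916 and 1646 TPM in large and 1477, 1576 and 2541 TPM in small ATML1p cells. It was higher in large cells on 1 of 5 plates. The part of these markers in the values below was not tested. Of the 53 genes that rose in large TMMp cells, 47 were above 0 in large ATML1p cells (88.7%), against 45.4% of all genes tested, with a median of 1.59 against -0.09. Without plate ML2, the smallest, 49 were above 0, against 46.5% of all genes. Of the 12 genes that fell in large TMMp cells, 6 were below 0 in ATML1p cells (7 without plate ML2). These were other cells of another line, from pools with the same 2 numbers.

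The difference between the lines was itself tested, and 45 genes passed (0.477% of 9435, limma over 7 TMMp and 5 ATML1p plates, 1414 at an unadjusted p under 0.05), 37 with the higher size difference in TMMp and 8 in ATML1p. Of the 65 genes called in TMMp cells, 1 was among them. PIL6 was higher in large than in small TMMp cells, at 88.5 and 35.4 TPM on the median plate, and had a difference of 1.78 ± 0.38 in TMMp and -1.42 ± 0.48 in ATML1p (SE), which differed by 3.20 ± 0.63 (limma adjusted p = 0.0215). All 3 chaperones had opposite signs in the 2 lines, and the difference between lines passed for none of the 3. AT1G54050 was at -2.65 ± 0.48 in TMMp and 1.90 ± 0.86 in ATML1p (limma adjusted p of the difference 0.0638). HSP81-3 was at -2.14 ± 0.49 in TMMp and 1.68 ± 0.72 in ATML1p (adjusted p 0.0638). Hsp70-2 was at -2.03 ± 0.46 in TMMp and 0.37 ± 0.60 in ATML1p (adjusted p 0.158), an ATML1p value within its SE of 0. Of the 5 ATML1p plates, AT1G54050 was below 0 on ML2 (-1.99) and Hsp70-2 on ML1-5 (-1.62) and ML1-6 (-0.77). HSP81-3 had plate means of 89.6 to 314 TPM in large and 0.675 to 117 TPM in small ATML1p cells. The heat response list had a median of -0.52 in TMMp, where it was above 0 on 5 of 7 plates, and 2.79 in ATML1p, where 15 of 15 genes lay above 0, and no gene of it passed in the test of the difference. AT3G09440, an HSP70 gene outside the list that was named after its values were seen, did pass, with -1.09 ± 0.40 in TMMp and 3.83 ± 0.74 in ATML1p (adjusted p = 0.0215). The mesophyll and photosynthesis list gave 4 of the 45, among them LHCB3 (-0.72 ± 0.38 in TMMp, -4.92 ± 0.60 in ATML1p) and RBCS3B (-0.42 ± 0.38 in TMMp, -4.51 ± 0.60 in ATML1p), and the cytosolic ribosomal protein list another 4. Genes outside these lists with related annotations were also among the 45. They included NPQ4 of the chlorophyll A-B binding family, the PsbP-like gene PPL1 and AT1G56045 of the ribosomal protein L41 family. The count rested on the ATML1p plates, with 1227 genes without plate ML2, 853 without the covariate and 299 with plates weighted by their cells.

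**Figure D5:**
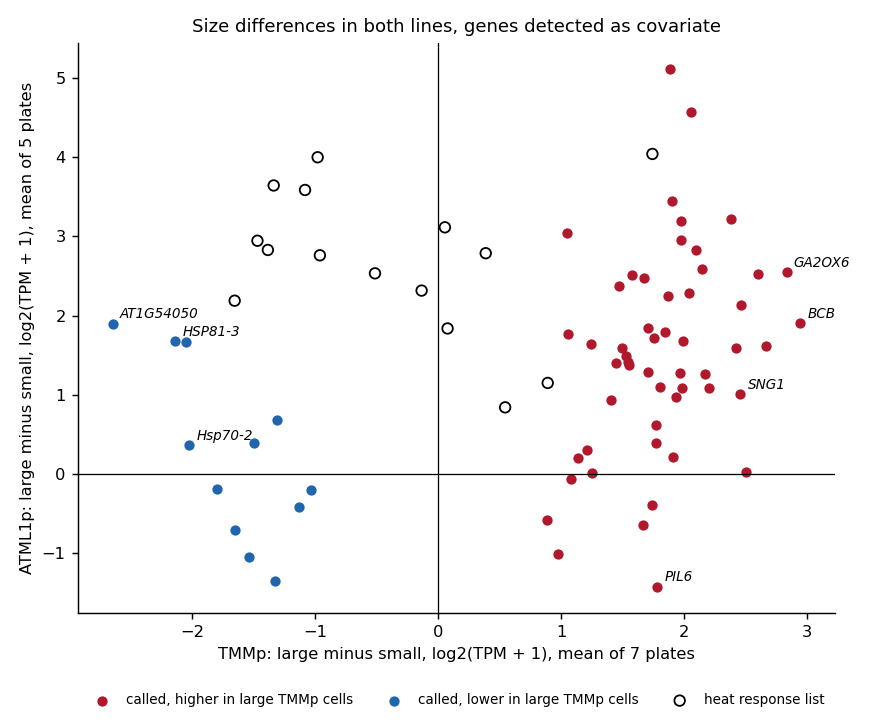
Difference between large and small cells in log2(TPM + 1) with genes detected as covariate, in TMMp (horizontal, mean of 7 plates) against ATML1p (vertical, mean of 5 plates), for the 53 genes higher (red) and 12 lower (blue) in large TMMp cells and for the 15 heat response genes tested (open circles). Of the 53 genes, 47 lie above 0 in ATML1p, and the 15 heat response genes all do.

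The promoters of the called genes were searched for short motifs on both strands, from 250 bases before to 50 after the annotated start in TAIR10.1. Site II (TGGGCC or TGGGCT), common in promoters of ribosomal and other growth genes, stood in 5 of 53 promoters of genes that rose (9.43%), 5 of 12 of those that fell (41.7%) and 29.9% of the 9314 promoters of tested genes. The W-box (TTGACC or TTGACT), bound by WRKY factors and added to the search after the results were seen, stood in 19 of the 53 (35.8%) and 33.5% of all. The heat shock element GAANNTTC stood in 0 of the 12 and in 12.3% of all, and the G-box CACGTG in 6 of the 53 (11.3%) and 10.2% of all. The telo-box AAACCCTA stood in 1 of the 53 (1.89%) and 6.13% of all, the mitosis-specific activator core AACGG in 15 (28.3%) and 27.9%, and the E2F motifs TTTCCCGC or TTTGGCGC in none of the 65 called genes and 1.14% of all. A match describes these letters in this window and no binding.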

How the data were processed

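The authors deposited 2 TPM tables, 1 per line, in which cells summed to between 999995 and 1000029 TPM (TMMp) and between 999559 and 1000086 TPM (ATML1p), and a sort table of channel medians on the log2 scale, per the file headers. Cell Ranger and TAIR10 appear, with no role, in the submitters' processing notes. The quantification program is not given in the sources used here. TPM keep no read depth, so depth per cell is unknown and genes detected (384 to 10726 per compared cell) stood in for it. An exact 0 may be a failed capture. No cell was removed, no doublet caller was run, and no 2 cells had identical values. The 478 cells used 357 index pairs, 121 of them on more than 1 plate and 0 repeated within a pool.

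Per plate and gene, log2(TPM + 1) was regressed on size class and log2 genes detected over the large and small cells. The 7 plate coefficients were compared with 0 in limma 3.58.1 (R 4.3.3, eBayes with an intensity trend), with Benjamini-Hochberg adjustment over the 9435 genes that reached a TPM of 1 in 10% or more of the 316 cells compared. Large and small cells of a plate were sorted and processed together, so the plate was the block. Their deviations from the class means correlated by between -0.002 and 0.267 over plates, and 3 of 7 plates correlated best with their own. Single measures used two-sided exact sign-flip tests. The fit was also run with size classes shuffled within plates and known shifts added to chosen genes. Shuffling breaks the link of class with genes detected, so that run could not test how the fit handles this link.

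Named genes were the 15 largest rises and all falls that passed with the same sign on 7 plates, every stage gene, TMM and the extremes of each list. Other genes, those of the line comparison included, were named after their values were seen. The cells, lists and tests were chosen with earlier results of these data known. The TAIR10.1 annotation named 32548 of 32833 genes.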

Additional observations from a re-analysis of the deposited data

Results flagged for a closer look

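On plate TMM-2 the mitochondrial share of TPM was 1.23 percentage points higher in large than in small cells (3.81% in large, 2.57% in small), while the other 6 plates lay between -0.31 and 0.16. The share of cells with ATMYC1 was 8.70 percentage points lower in large cells on plate TMM6, at -8.70, and higher in large cells on the other 6 plates. In 5 genes, among 65 called and 62 others compared by plate, 1 plate stood apart from the other 6 in its difference at a given number of genes detected. These were AT1G66090 with 5.01 on TMM6, AT4G39670, a gene of the glycolipid transfer protein family, with 5.23 on TMM4, AT1G04770 with 1.34 on TMM5 where the other 6 plates were below 0, the kinase inhibitor gene KRP6 with -0.91 on TMM7 and the gibberellin-responsive gene GASA4 with -2.34 on TMM6. Chance would single out about 1 in 20 groups in this way, so several among that many genes, and the plates' part in these values was not tested.

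The size difference of 2 named genes differed between the lines in limma. That of PIL6 was 3.20 higher in TMMp than in ATML1p (log2, adjusted p = 0.0215), and that of the water channel gene PIP1;1 was 4.56 higher (0.75 ± 0.37 in TMMp, -3.81 ± 0.52 in ATML1p, adjusted p = 0.00852). PIP1;1 itself did not pass for size in TMMp cells (adjusted p = 0.411).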

How the results depend on the processing

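The 53 higher and 12 lower genes became 86 and 31 with cells of 1000 genes or more, 85 and 28 with 4 size classes a plate (outer ones compared), 30 and 19 with 2 classes, 225 and 123 with a slope over all cells, 113 and 48 with the square of log2 genes detected (added after seeing the data), 2043 and 7 with no covariate, and 0 and 0 with side scatter, without the filter or on log2 of mean TPM. They were 1 and 0 with side scatter and the reporter channel both added after seeing the data. They were 55 and 12 after rescaling to nuclear genes, 45 and 16 with a pseudocount of 10 and 63 and 14 with the reporter channel. With no replicate block, large and small plate values taken as unpaired, they were 2 and 1. Without single plates they ranged from 17 to 105 and from 3 to 22. Without pool 1 (replicate 1) they were 87 and 21, and without pool 2, which leaves 2 plates, 2 and 12, of which 1 was among the 65. The signs of all 65 remained under leave-one-out plates, with 4 size classes and with side scatter. The cause of these shifts was not tested.

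On log2 of mean TPM, the covariate was the mean genes detected of each class on a plate. There signs turned for BCB (-0.29), WRKY48 (-0.30), AR781 (-0.16), BAP2 (-1.33), AT1G22890 (-1.08) and AGP2 (-1.24). They turned with no replicate block for HR4 (-0.17), AT1G54050 (1.70), PER4 (-0.22), AT1G22890 (-0.30), AT2G25735 (-0.75), AT3G07195 (-0.31), BGAL2 (-0.061) and PIL6 (-0.0056), without pool 2 (replicate 2) for IAA7 (-0.0037, against 1.47 without pool 1) and with no covariate for AT4G39670 (-0.069). Without the covariate PDF1 (1.42), RBCS1A (1.42) and AT4G40030 (1.19) passed as higher. Shares with the covariate turned to -7.97 points for FAMA, -5.44 for PDF1, -3.50 for ATML1 and -1.77 for RBCS1A. Genes differing between the lines numbered 45, against 853, 1227 and 299 with no covariate, without ML2 and with weights. TPM give no depth, so a gene in few cells cannot be told apart from one missed.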
